A study of Mus musculus with 19 samples.

Results

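The genes described here are 7 transcription factor genes that act in the dental mesenchyme, the layer of cranial neural crest cells under and around the forming tooth: Msx1, Msx2, Pax9, Barx1, Lhx6, Lhx8 and Runx2. They were chosen by name. Of the 7, 6 had at least 1 probe set (the short probes that together read 1 transcript) that names only that gene, and all 6 were among the 13320 genes tested, of 18193 genes with a probe set of their own. Runx2, which bone and tooth mesenchyme need in order to mature, is not analysed here, as no probe set of the platform annotation named it. The 6 genes carry 11 probe sets, of which 8 passed the filter on low values; Msx2, Pax9 and Lhx6 each have 1 that did not.

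Transcripts were measured on 19 Affymetrix expression arrays hybridised with labelled RNA of wild-type embryos of the ICR stock, the day of the plug counted as E0.5. Tooth germ of E13.5 (n = 3 arrays) was set beside whole bodies of E11.5 to E13.5 (n = 3), and lens of 3 stages, E10.5, then E11.5, then E12.5 (n = 3 each), beside whole bodies of E10.5 to E12.5 (n = 4). These are called the tooth series and the lens series, and the question was which transcripts a tissue holds above its body. The labels do not say which tooth the germs came from, whether the bodies included the jaws, or whether replicates were separate litters, so each p-value measures only the spread between these arrays.

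A tooth forms from an epithelium and the neural crest mesenchyme below it, which signal to each other in turn through BMP, FGF, WNT, SHH and activin proteins. Epithelial signals first switch on homeobox and paired box genes in the mesenchyme, and the mesenchyme then takes over the ability to instruct tooth formation. In mice, loss of Msx1 or Pax9 stops teeth at the bud stage and lowers mesenchymal Bmp4, and in people variants of either gene are known to cause missing teeth. Barx1 marks the molar side of the jaw mesenchyme, and Lhx6 and Lhx8 (also called Lhx7) are LIM homeobox genes of the oral side of the first branchial arch, also active in neurons of the ventral forebrain.

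To show the region in front of the genes, 250 bases upstream of the start were read from RefSeq (GRCm38.p6) for all 7 genes. These 4 are shown because they pair a gene high in tooth germ with one that was not clearly so (Msx1 and Msx2) and set side by side the most GC-rich and one of the AT-richer starts (Barx1 and Lhx8). They are written 5′ to 3′ along the gene's strand, and capitals mark matches to the motifs named after them. The windows are chr5:37824586-37824835, chr13:53472781-53473030 and chr3:154330561-154330810 on the minus strand for Msx1, Msx2 and Lhx8, and chr13:48662786-48663035 on the plus strand for Barx1.
Msx1: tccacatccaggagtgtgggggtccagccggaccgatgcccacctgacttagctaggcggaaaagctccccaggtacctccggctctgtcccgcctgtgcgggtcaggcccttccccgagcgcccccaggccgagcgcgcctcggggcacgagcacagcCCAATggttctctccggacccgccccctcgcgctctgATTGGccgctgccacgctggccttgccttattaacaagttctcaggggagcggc
Msx2: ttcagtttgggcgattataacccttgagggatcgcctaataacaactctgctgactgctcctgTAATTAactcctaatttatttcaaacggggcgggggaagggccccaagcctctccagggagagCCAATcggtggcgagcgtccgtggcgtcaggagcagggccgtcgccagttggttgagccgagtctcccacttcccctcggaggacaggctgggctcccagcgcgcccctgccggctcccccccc
Barx1: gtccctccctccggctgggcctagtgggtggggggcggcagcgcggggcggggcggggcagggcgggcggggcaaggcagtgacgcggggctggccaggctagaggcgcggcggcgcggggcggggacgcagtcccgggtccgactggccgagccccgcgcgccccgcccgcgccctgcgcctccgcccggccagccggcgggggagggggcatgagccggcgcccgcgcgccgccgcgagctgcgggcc
Lhx8: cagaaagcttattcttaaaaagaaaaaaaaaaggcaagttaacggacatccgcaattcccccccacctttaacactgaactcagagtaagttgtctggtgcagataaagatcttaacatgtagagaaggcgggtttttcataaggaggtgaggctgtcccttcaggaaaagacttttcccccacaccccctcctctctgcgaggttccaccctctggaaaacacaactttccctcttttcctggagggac

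A set of 5 short motifs was searched on both strands: TAATTG, a site that MSX proteins are known to bind, TAATTA, a homeodomain site that reads the same on both strands, TGTGGT, the core bound by RUNX proteins, CCAAT, and TATAAA, the TATA box. Of 32851 windows of the same length, 7.17% held TAATTG, 4.84% TAATTA, 14% TGTGGT, 33.8% CCAAT and 12.4% TATAAA. The Msx1 window had CCAAT at 2 places, 87 to 91 bases before the start and, on the other strand, 50 to 54 bases before it. The Msx2 window had TAATTA 182 to 187 bases and CCAAT 120 to 124 bases before the start. The Barx1, Lhx8 and Pax9 windows held none of the 5. Among the 3 Lhx6 windows, 1 had TAATTG 224 to 229 bases and CCAAT 92 to 96 bases before its start, and another had CCAAT on the other strand, 189 to 193 bases before it. The Runx2 window had TGTGGT on the other strand, 75 to 80 bases before the start. The Barx1 window was 85.6% G and C, above 99.9% of all windows, against 68.0% for Msx1, 61.6% for Msx2, 46.0% for Lhx8 and 43.6% for Pax9, where the median window had 52.4%. These matches describe the letters only.

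Levels below are log2 signals of 1 probe set and are not compared between genes. Differences are log2, with the standard error (SE) of a limma fit over all 19 arrays; a call means a Benjamini-Hochberg adjusted p under 0.05 over the 13320 genes. Among 27 bacterial control sets, for which nothing was added, 95% lay under 4.71, which serves as the background level. The 2 series differ in the 5′ minus 3′ signal of control genes, a common measure of RNA quality. Whether the RNA or its labelling sets it here was not tested. For beta-actin it was -5.05 to -4.22 in the tooth series and -0.48 to -0.21 in the lens series. For Gapdh it was -4.08 to -2.82 in the tooth series and -0.05 to 0.10 in the lens series. Within the tooth series the Gapdh value was -3.13 to -2.82 in tooth germ, against -4.08 to -3.84 in body. Beta-actin went the other way, at -5.05 to -4.78 in tooth germ, against -4.47 to -4.22 in body. The bacterial spike controls read 10.54 to 10.87 in tooth germ, against 8.55 to 9.36 in body. These splits coincide with tooth germ and body, so their part in the tooth germ differences cannot be told apart from that of the tissue. Lens markers were higher than in the body for 7 of 7 genes tested at each lens stage, where 13.5%, 14.7% and 16.6% of all genes were. In tooth germ the epithelial markers were higher than in the body for 5 of 7 tested, where 16.6% of all genes were. Among the 5 were Krt14, Krt5 and Trp63, by 3.56, 2.98 and 2.68. Of the 7, 1 was lower, Sox2 (-2.40), where 25.3% of all genes were.

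In E13.5 tooth germ, 5 of the 6 genes were called higher than in the body and none lower, where 16.6% of all genes tested were called higher and 25.3% lower. With each array centred on its median the split over all genes became 54.7% higher among those called, against 39.6% as deposited, with a median difference over all genes of 0.12 against -0.04. The members' median difference was 1.82. Lhx8, Msx1 and Lhx6 stood 22nd, 33rd and 35th among all genes by the size of the rise. Every tooth array lay above every body array for 4 genes, Msx1, Barx1, Lhx6 and Lhx8, where 24.4% of all genes showed such a separation. In a whole tissue, more cells with a transcript and more transcript per cell cannot be told apart.

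**Figure D1:**
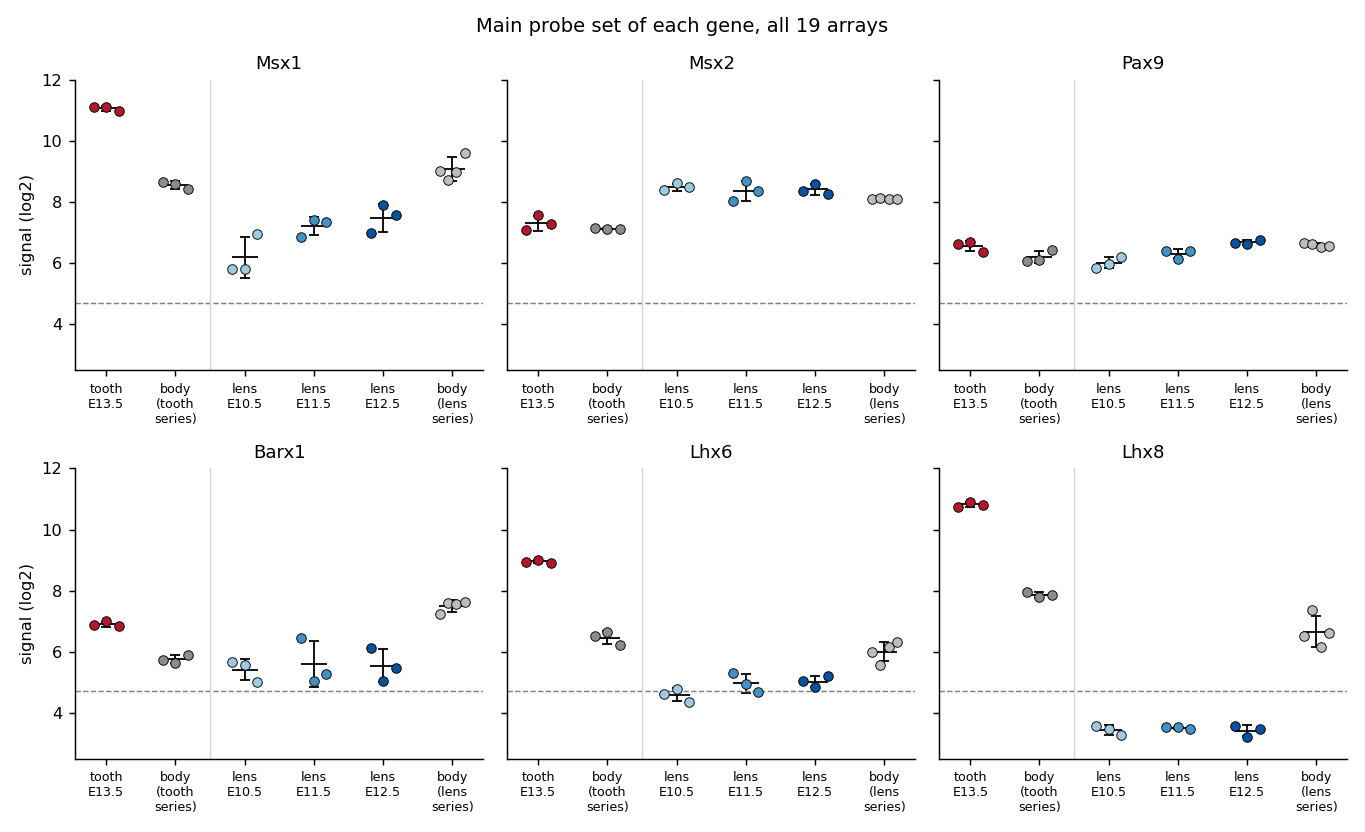
Log2 signal of the main probe set of each of the 6 genes on all 19 arrays. Points are arrays, the horizontal bar and whisker are the mean and SD of the group, the dashed line is the background level of 4.71, and the vertical line parts the tooth series from the lens series. Lhx8 lens arrays all lie under the line while the tooth arrays lie between 10.75 and 10.91. Msx2 lens arrays lie at or above 8.03, above the tooth arrays, which belong to the other series.

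Msx1 (Entrez gene 17701; chromosome 5, 37820491 to 37824585) encodes a homeodomain repressor that, with Pax9, keeps Bmp4 on in the bud mesenchyme. Its main probe set, 1448601_s_at, read 11.11, 11.10 and 10.97 in tooth germ, against 8.66, 8.58 and 8.42 in body. The tooth arrays lay close together and all above the body arrays. The difference was 2.51 ± 0.28 (SE), a 5.70-fold rise, with an adjusted p of 1.02e-06 in limma. The other probe set, 1417127_at, read 7.72, 7.82 and 7.75 in tooth germ, against 6.38, 6.52 and 6.20 in body, a smaller difference of 1.40 ± 0.19 in the same direction. The suffix _s_at means that the probes of the main set can match more than 1 transcript.

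Pax9 (Entrez gene 18511; chromosome 12, 56691693 to 56712824), a paired box factor, had probe sets that disagreed in the size of the tooth germ difference. By the rule of highest mean its main set is 1421247_at, which read 6.61, 6.68 and 6.38 in tooth germ, against 6.08, 6.11 and 6.42 in body. These groups overlap, and the difference was only 0.35 ± 0.14, with a limma adjusted p of 0.0446. Leaving out single arrays moved that adjusted p between 0.0151 and 0.155, and the call ended with 13 of the 19 arrays left out in turn.

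The second Pax9 set, 1442229_at, read 7.89, 8.41 and 8.53 in tooth germ, against 6.10, 5.24 and 5.80 in body. Here every tooth array stood above every body array, and the difference was 2.56 ± 0.20, a 5.90-fold rise (limma adjusted p = 1.36e-08 over 23913 probe sets, rank 50 from the top). The dimmest set, 1421246_at, was separate too, at 5.52, 5.0 and 5.24 in tooth germ, against 4.23, 3.97 and 4.10 in body. All its body arrays were at background, so the rise is given as a bound of at least 1.46-fold. Over the 19 arrays the second and the dimmest set followed each other with a Pearson r of 0.93, and the main set followed the second with an r of 0.22. Which part of the transcript each set probes is not given in the sources used here, and whether all 3 report the same transcript was not tested.

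**Figure D2:**
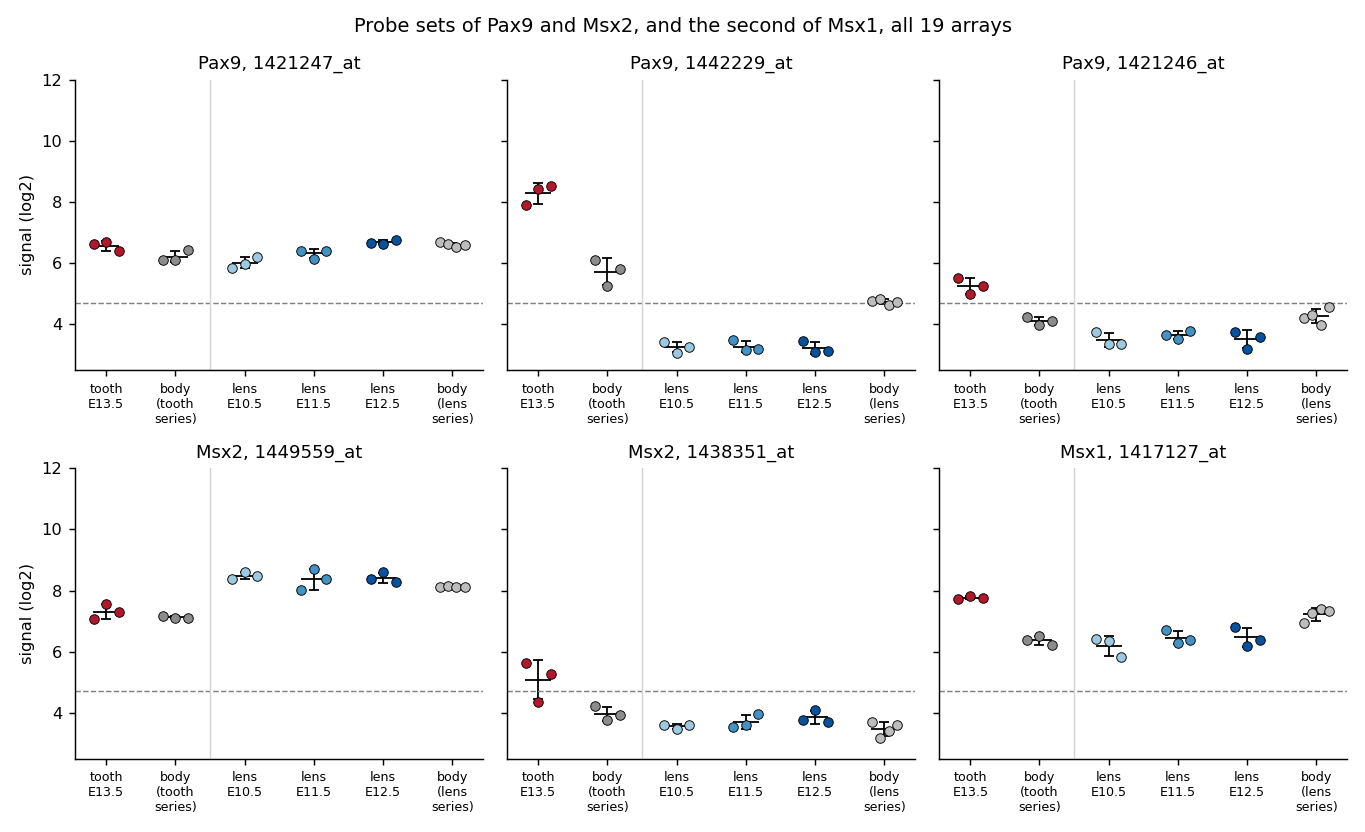
Log2 signal on all 19 arrays of the 3 probe sets of Pax9, both of Msx2 and the second of Msx1, with group mean and SD; the dashed line is the background level of 4.71. The main Pax9 set stays between 5.85 and 6.75 in every group, whereas its second set reaches 8.53 in tooth germ and lies under 3.5 on every lens array.

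Barx1 (Entrez gene 12022; chromosome 13, 48663036 to 48666507), a homeobox gene of the proximal, molar-forming jaw, has 1 probe set. It read 6.89, 7.0 and 6.83 in tooth germ, against 5.74, 5.62 and 5.89 in body. The groups did not overlap, and the difference of 1.15 ± 0.29, a 2.23-fold rise, had a limma adjusted p of 0.00389. Its level in tooth germ was nevertheless below that in the bodies of the lens series, which read 7.22, 7.60, 7.57 and 7.64. That sets arrays of the 2 series side by side, whose 5′ minus 3′ signals differ.

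Lhx6 and Lhx8 are the LIM homeobox pair of the oral jaw mesenchyme, where they are known to act redundantly in mice. Lhx8 (Entrez gene 16875; chromosome 3, 154306288 to 154330560) read 10.75, 10.91 and 10.82 in tooth germ, against 7.96, 7.78 and 7.85 in body. This was the largest rise among the 6 main probe sets, 2.96 ± 0.21 or 7.79-fold, with a limma adjusted p of 2.11e-09. Lhx6 (Entrez gene 16874; chromosome 2, 36081950 to 36105992) read 8.94, 9.0 and 8.92 in tooth germ, against 6.51, 6.65 and 6.23 in body by its main set, 1425094_a_at. The tooth arrays again lay close together, and the difference was 2.49 ± 0.19 or 5.63-fold (limma adjusted p = 7.16e-09). The second Lhx6 set, 1422262_a_at, was below background on all 19 arrays and gives no fold.

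Msx2 (Entrez gene 17702; chromosome 13, 53466881 to 53472780), the close relative of Msx1 that is known from dental epithelium as well as mesenchyme, was the exception. Its main set, 1449559_at, read 7.07, 7.56 and 7.29 in tooth germ, against 7.15, 7.10 and 7.11 in body. These overlap, and the difference of 0.18 had a 95% interval from -0.15 to 0.52 and a limma adjusted p of 0.37. With arrays centred it was 0.34 (adjusted p = 0.0463), and with the mean of both sets 0.65 (adjusted p = 0.000755).

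The second Msx2 set, 1438351_at, read 5.61, 4.36 and 5.28 in tooth germ, against 4.21, 3.77 and 3.94 in body. Only 2 of the 3 tooth arrays and no body array stood above background, and the set did not pass the filter; the rise was at least 1.30-fold. Over the 19 arrays the 2 Msx2 sets had r = -0.61, but the second was above background on only 2 of them. The main set stood higher on every lens-series array than on every tooth-series array, so this r also mixes the 2 series. Between tooth germ and its body both sets differed in the same direction (0.18 and 1.12). Fitted without the filter over 34945 probe sets, the second set was called higher (1.12 ± 0.24, limma adjusted p = 0.00127). In that fit 9 of the 11 probe sets of the 6 genes were called higher in tooth germ, where 14.2% of all sets were; the other 2 were the main sets of Msx2 and Pax9. The 9 include the second Lhx6 set, whose values are all below background.

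**Figure D3:**
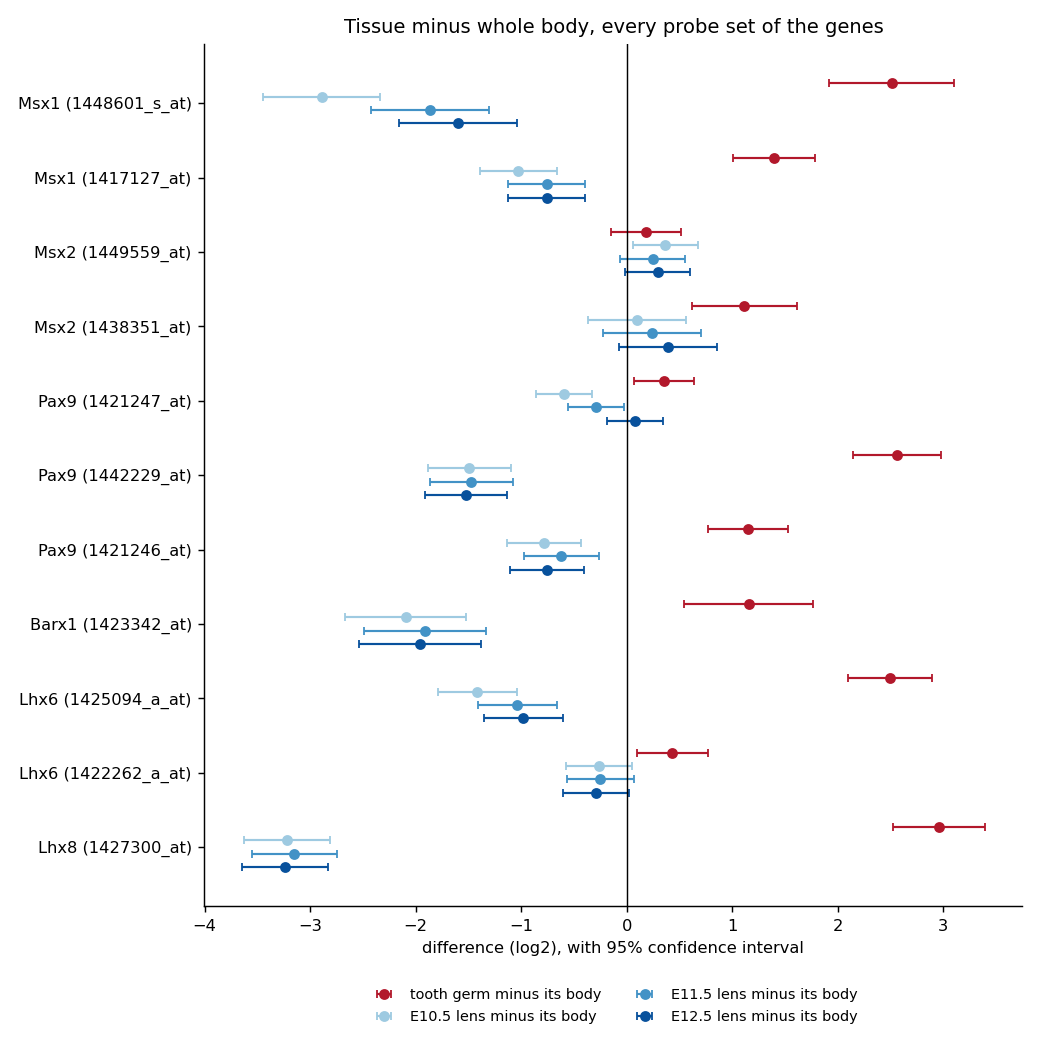
Difference from the whole body of the same series (log2, with 95% confidence interval) for all 11 probe sets, fitted with no filter on low values: tooth germ in red and the 3 lens stages in light to dark blue, earliest lightest. The red point of Lhx8 stands at 2.96 and its lens points at about -3.2, whereas for the main Msx2 set all 4 points lie between 0.18 and 0.37.

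The lens is an ectodermal tissue with no neural crest of its own, and there the genes ran mostly the other way. At E10.5, 5 of the 6 were called lower than in the lens-series body and none higher, where 19.1% of all genes were lower and 13.5% higher. At E11.5 it was 4 lower and none higher, with 22.3% and 14.7% of all genes, and by E12.5 again 4 and none, with 26.7% and 16.6%. Every array of each stage lay below every body array for Msx1, Barx1, Lhx6 and Lhx8, and at E10.5 and E11.5 for main-set Pax9 too; of all genes 22.7%, 22.9% and 29.5% were so separated at the 3 stages. The members' median difference was -1.76, -1.45 and -1.29 at the 3 stages, against a median near 0 for all genes (-0.01, -0.03 and -0.05). The 3 stages share the same 4 body arrays.

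Lhx8 was below background on all 9 lens arrays. It read 3.57, 3.47 and 3.26 at E10.5, 3.52, 3.52 and 3.47 at E11.5, then 3.56, 3.22 and 3.46 at E12.5, against 6.50, 7.37, 6.15 and 6.60 in body. The lens therefore had at least 3.86-fold less signal than the body at each stage, and limma called the fitted differences of -3.22, -3.15 and -3.24 with adjusted p-values of 1.01e-10, 1.48e-10 and 7.82e-11.

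Msx1 was lower in lens yet above background on every array. Lens arrays read 5.81, 5.79 and 6.95 at E10.5, 6.87, 7.42 and 7.34 at E11.5, then 6.97, 7.88 and 7.58 at E12.5, against 9.01, 8.70, 8.98 and 9.61 in body. The difference from the body was -2.89, -1.87 and -1.60 (SE 0.27 each), a difference called at each stage. By the second set it was -1.03, -0.76 and -0.76.

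Between lens stages Msx1 was higher at E12.5 than at E10.5 by 1.29 ± 0.28 (limma adjusted p = 0.00236), 1 of 2 members called higher there, where 8.91% of all genes were higher and 13.2% lower. From E10.5 to E11.5 it was the only member called (1.03 ± 0.28, adjusted p = 0.0462; 1.52% of all genes higher and 2.74% lower), and that call ended with 13 of the 19 arrays left out in turn, over an adjusted p of 0.0024 to 0.278. Replicate 3 of E10.5 stood at 6.95, within the range of E11.5, and above replicates 1 and 2. Without replicate 3 the difference was 1.41 (adjusted p = 0.0024), and without replicate 1 or 2 it was 0.84 or 0.83 (adjusted p = 0.21 and 0.278). The second set gave 0.27 for both steps, with no call, so the call rests on the main set. General mesenchyme markers were higher at E12.5 than at E10.5 for 5 of 9 tested and lower for 2 (median 0.77), and at E11.5 for 3 and lower for none (median 0.74); their part in the Msx1 difference was not tested. The bacterial control signal splits the lens series into 6 arrays of high and 7 of low signal. The high arrays include only 1 of E11.5 and 1 of E12.5, and the low arrays only 1 of E10.5. A value within either set that uses such a lone array assumes that it varies like the others, and whether it passes the threshold says little. The Msx1 difference between E12.5 and E10.5 was 1.17 within the high arrays and 0.78 within the low ones. Between E11.5 and E10.5 it was 1.07 and 0.43. Replicate 3 of E10.5 is the only low array of its stage. At each lens stage the main Msx1 set read lower on the high arrays than on the low ones, and 1417127_at read higher on them. The 1.41 obtained without replicate 3 therefore sets only high arrays of E10.5 against E11.5 arrays of both kinds. Between E11.5 and E12.5 none of the 6 was called in limma (3.02% of all genes higher, 3.45% lower); the only unadjusted p under 0.05 was that of Pax9, 0.0158. Same-numbered arrays of these stages deviated together (r = 0.40 to 0.64 for 3 pairs), and with the number as a block over these 6 arrays none was called either, with Pax9 at 0.36 ± 0.12 (adjusted p = 0.161) and Msx1 at 0.27 ± 0.13 (adjusted p = 0.303).

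Barx1 read 5.66, 5.57 and 5.01 at E10.5, 6.46, 5.06 and 5.28 at E11.5, then 6.13, 5.06 and 5.45 at E12.5. All lay below the 7.22 of the lowest lens-series body array, with differences of -2.10, -1.91 and -1.96 (SE 0.27 each). The first array of E11.5 and of E12.5 stood highest in its stage, and each is the only array of its stage with high bacterial control signal. Within the high arrays the difference was -1.97, -1.12 and -1.45, and within the low ones -2.42, -2.26 and -2.18, with the lone arrays named above.

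Lhx6 was close to background in lens, at 4.36 to 4.78 at E10.5, 4.67 to 5.30 at E11.5, then 4.84 to 5.20 at E12.5, against 5.98, 5.56, 6.16 and 6.31 in body. No lens array reached the lowest body array, and the differences were -1.42, -1.04 and -0.98 (SE 0.18 each). Within the arrays of high bacterial control signal, with 1 lens array at each of these stages, the E11.5 and E12.5 differences were -0.56 and -0.83 and were not called (limma adjusted p = 0.149 and 0.0511). Within the low arrays, with 2 at each, they were -1.34 and -1.12 and were called.

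Pax9 again depended on the probe set. By the main set the lens read 5.85, 5.96 and 6.20 at E10.5, 6.41, 6.14 and 6.39 at E11.5, then 6.64, 6.63 and 6.75 at E12.5, against 6.67, 6.62, 6.54 and 6.57 in body. The E10.5 difference of -0.60 ± 0.13 was called (limma adjusted p = 0.0011), and it was -0.42 within the arrays of low bacterial control signal, which include 1 of E10.5 (adjusted p = 0.108). The E11.5 difference of -0.29 and the E12.5 difference of 0.07 were not called. The main set was higher at E12.5 than at E10.5 by 0.67 ± 0.14 (limma adjusted p = 0.00125). Within the high and the low arrays alone, each with 1 array in an arm, the difference was 0.74 and 0.49 (adjusted p = 0.0562 and 0.0948). The second set was below background on all 9 lens arrays at 3.07 to 3.47. The lens-series bodies stood at 4.64 to 4.83 by that set, about at background, so its fitted lens differences of -1.49, -1.47 and -1.52 give no fold.

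Msx2 was not lower in lens at any stage. Its main set read 8.38, 8.61 and 8.47 at E10.5, 8.03, 8.70 and 8.37 at E11.5, then 8.36, 8.60 and 8.27 at E12.5, against 8.11, 8.14, 8.11 and 8.11 in body. Every lens array of E10.5 and E12.5 stood above the body arrays, a separation that 17.7% and 19.6% of all genes showed, and the differences of 0.37, 0.25 and 0.29 were not called (limma adjusted p = 0.0673, 0.217 and 0.124). Centring arrays on their medians made them 0.45, 0.37 and 0.43, all called. The second set lay at 3.47 to 4.10 in lens, below background.

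The contrast between the tissues was tested as the tooth germ minus body difference less the E12.5 lens minus body difference. By the main probe sets 4 of the 6 genes were higher and none lower, where 20.4% of all genes were higher and 19.2% lower. Lhx8 differed by 6.20 ± 0.29, Msx1 by 4.11 ± 0.39, Lhx6 by 3.47 ± 0.26 and Barx1 by 3.11 ± 0.40, with limma adjusted p-values from 8.13e-12 to 5.68e-06. Lhx8 lens levels are at background, so its value rests on a floor. For Msx2 the difference was -0.11, with a 95% interval from -0.56 to 0.35. For Pax9 it was 0.28 (-0.11 to 0.67) by the main set; the second set was at background in lens, so no size is given for it. The tissues also differ in stage and in the 5′ minus 3′ signal of the 2 series, and the part of either in these values was not tested.

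The 2 kinds of body, tooth series and lens series, differed for 5 of the 6 genes, 2 higher and 3 lower, where 31.8% of all genes were called each way. Tooth-series bodies had more Lhx8 (1.21 ± 0.19, 7.86 in tooth-series against 6.65 in lens-series bodies) and Lhx6 (0.46 ± 0.18, 6.46 against 6.0), and less Barx1 (-1.76 ± 0.27, 5.75 against 7.51), Msx2 (-1.0 ± 0.15, 7.12 against 8.12) and main-set Pax9 (-0.40 ± 0.13, 6.20 against 6.60). The Pax9 call ended with arrays centred (-0.29, adjusted p = 0.109) or quantile normalized (-0.23, adjusted p = 0.154), and its second set went the other way, 0.98 ± 0.19. Msx1 was lower by its second set (-0.86) but not called by its main one (-0.52, adjusted p = 0.0934), except in a fit of only these groups (adjusted p = 0.0279) or with the third E10.5 lens array left out (adjusted p = 0.0393). The Lhx6 call ended when any of 4 arrays was left out, the first or second of either body group, with values down to 0.31, and by the mean of its probe sets (0.18, adjusted p = 0.252), one of which is below background. By the mean of both Msx2 sets, one of them likewise below background in the bodies, the difference was -0.25 and not called (adjusted p = 0.0931). Stage range and the 5′ minus 3′ signal are confounded with this comparison and cannot be told apart in it. Of 6 markers of the ventral forebrain, which also uses Lhx6 and Lhx8, 4 were measured and 2 tested. The 2 tested, Gad1 and Gad2, enzymes of GABA synthesis, were higher in tooth-series bodies by 1.29 and 1.17, where 31.8% of all genes were higher. Nkx2-1 was at background in all tooth-series bodies but not in all lens-series bodies. The summed level of the 4 was 7.76 to 8.12 in tooth-series bodies, against 6.79 to 7.33 in lens-series bodies. In tooth germ that sum was 6.81 to 7.10 and Gad1 and Gad2 differed from body by -1.83 and -1.52, both called lower. General neuron markers ran mostly the other way between the bodies: of 6 tested, 1 was higher in tooth-series bodies and 3 lower (median -1.14). The part of forebrain or other neurons in the body levels of Lhx6 and Lhx8 was not tested.

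Ordered by group mean of the main probe set, Msx1, Lhx6 and Lhx8 had tooth germ first, with no array shared in range with the next group, and the 3 lens stages last. For Lhx8 each of the bodies also stood apart from the next group, tooth series above lens series, and the 3 lens stages were not separate from each other. For Msx1 the lens-series bodies came next and then the tooth-series bodies, each separate from its neighbour. The second Msx1 set also had tooth germ and then lens-series bodies, both separate. But it placed tooth-series bodies (6.37) below E12.5 and E11.5 lens (6.46 each), not separate from them. Barx1 had the lens-series bodies first and tooth germ second, each separate from its neighbour. Main-set Msx2 had the 3 lens stages and the lens-series bodies first, none separate from the next among these 4. Tooth germ and tooth-series bodies lay below all of them and were not separate from each other. Main-set Pax9 had no neighbouring pair of groups that was separate. The second and the dimmest Pax9 set each had tooth germ first, separate from the next group. So did the second Msx2 set, with every other group at background.

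The genes with the most similar pattern were taken by Pearson's r with the main probe set over the 19 arrays, as a description, since the arrays share tissues and series. For Lhx8 they were Frem1, Ahnak and Smpdl3b, each with r = 0.99. For Lhx6 they were Pappa2 (0.99), Prss12 (0.98) and Ifitm1 (0.98), and for Msx1 they were Bmp6 (0.96), Ifitm1 (0.96) and Col6a1 (0.95). The Msx1 partner Bmp6 encodes a BMP ligand and was higher in tooth germ than in body by 0.85, and Ifitm1 by 3.55. Barx1 ran with Tspan11 (0.95), Krt15 (0.91) and Vwa1 (0.89). The second Pax9 set ran with AI606473, Map3k20 and Ntf5 (0.99, 0.98 and 0.98), and with Lhx8 at 0.98 and Lhx6 at 0.97. The main Pax9 set reached at most 0.81, with Ubash3a, and the main Msx2 set ran with Myl12b (0.98), Edem2 (0.97) and Chchd5 (0.97), none of which is a gene of the lists below.

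Among 12 signals and targets of the dental mesenchyme, 10 were tested, of which 4 were higher in tooth germ than in body and 1 lower. Of all genes 16.6% were higher and 25.3% lower. The median of the 10 was 0.26, against -0.04 for all genes tested. Inhba, which encodes the activin subunit made by the mesenchyme, was higher by 2.42 ± 0.13, and Tnc, the matrix protein tenascin C, by 1.92 ± 0.26. Bmp4, the signal that Msx1 and Pax9 sustain in mice, was higher by 1.19 ± 0.21, and Lef1, the nuclear partner of beta-catenin, by 1.0 ± 0.20. The 1 lower was the WNT antagonist Sfrp1 (-0.93), named after its value was seen. Fgf10 was at background in tooth germ. In E12.5 lens these 4 genes were called lower than in body (Tnc -3.17, Bmp4 -2.84, Lef1 -1.71 and Inhba -0.38), among 6 of 10 called lower, and Sfrp1 was the 1 called higher (2.56). There 26.7% of all genes were lower and 16.6% higher. The mean of Tnc at E12.5, 4.58, lay below background, and at E10.5 Tnc was higher in lens than in body by 1.87, with 9.62 in lens against 7.75 in body. At E10.5, 3 of the 10 were higher in lens and 5 lower (13.5% and 19.1% of all genes). At E11.5, 2 were higher and 4 lower (14.7% and 22.3% of all genes), with Tnc at -0.13 and not called.

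Of 22 other regulators of jaw and dental mesenchyme, 17 were tested, with 7 higher and 3 lower in tooth germ and a median of 0.12. Of all genes 16.6% were higher and 25.3% lower. Pitx1, a bicoid-type homeobox gene of the lower jaw, was higher by 1.93 ± 0.26. The 3 lower were Hand2 (-4.20 ± 0.23), a marker of the distal and ventral arch and of limb and heart, Alx1 (-4.06 ± 0.22), a gene of the frontonasal mesenchyme, and Foxc1 (-2.19 ± 0.18). In E12.5 lens 14 of the 17 were lower than in body and none higher, where 26.7% of all genes were lower and 16.6% higher.

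Of 8 family relatives of the 7 genes, 7 were tested, with a median of -0.10. None was called higher in tooth germ and 3 were lower, where 16.6% of all genes were higher and 25.3% lower. The 3 were Lhx2 (-2.41 ± 0.25), Msx3 (-1.60 ± 0.17), a gene of the dorsal neural tube, and Pax1 (-0.60 ± 0.22), the sister gene of Pax9 in the vertebral column. Runx1 (0.30), Runx3 (-0.04) and their partner Cbfb (-0.06) were not called. Among epithelial signals to the mesenchyme 8 of 11 were tested, with Wnt10a (0.91 ± 0.16) and Fgf4 (0.47 ± 0.17) higher in tooth germ, Bmp2 lower (-1.36 ± 0.18) and a median of 0.15.

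**Figure D4:**
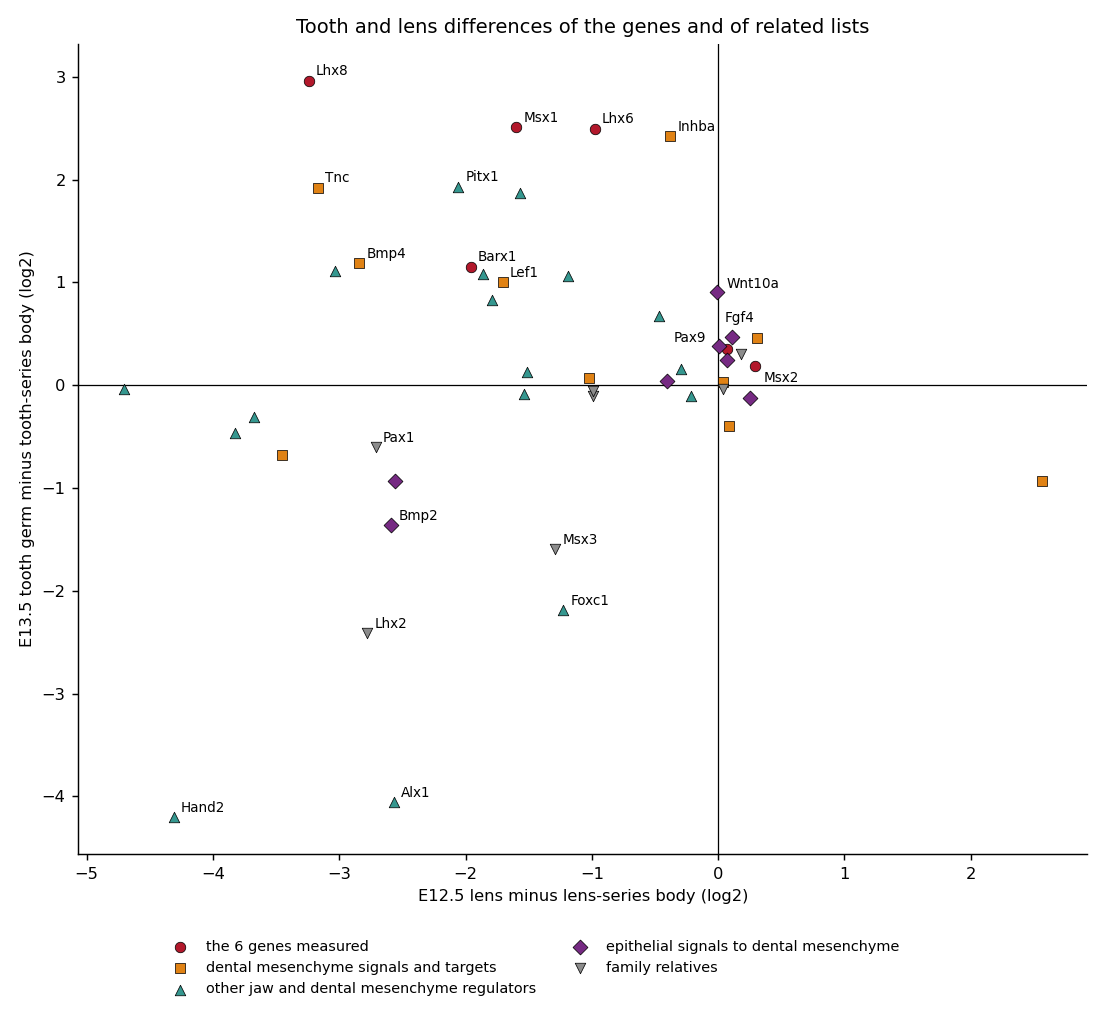
Tooth germ minus body difference (vertical) against E12.5 lens minus body difference (horizontal), both log2, for the 6 genes and for the tested genes of 4 lists, with the named genes labelled. Lhx8, Msx1 and Lhx6 lie at the upper left with Inhba, Tnc and Pitx1, at or above 1.92 on the vertical axis, and Msx2 and main-set Pax9 near the origin.

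Markers of other cell types were called in the tooth germ comparison too, where 16.6% of all genes were higher and 25.3% lower. Epithelial markers were higher for 5 of 7 tested and lower for 1, Sox2 (-2.40), with a summed level of 11.89 to 12.47 in tooth germ, against 10.72 to 10.99 in body. General mesenchyme markers were higher for 4 of 9 and lower for 1, Pdgfra (-1.01), with a summed level of 13.94 to 14.17 in tooth germ, against 13.39 to 13.69 in body. The neuron and skeletal muscle markers were lower for 6 of 6 each, with the neuron sum at 7.92 to 8.78 in tooth germ, against 11.28 to 11.60 in body. The osteoblast markers Alpl (0.94) and Sp7 (0.50) were higher, 2 of 3 tested, and Ibsp and Dmp1 were at background in both groups. Cartilage markers were lower for 4 of 5. In E12.5 lens general mesenchyme markers were lower for 8 of 9, where 26.7% of all genes were. Their summed level was 12.45 to 12.74 in lens, against 14.47 to 14.67 in body, and none of the 9 was at background on every lens array of a stage. The part of these cell types in the 6 genes' values was not tested.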

How the data were processed

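Gene expression was measured on 19 arrays, grouped by the stage and tissue in the labels. The authors deposited intensity values, 1 per probe set and array, made by RMA (background correction, common distribution, summary of probes) per the submitters' processing notes, which also list affy 0.7. Whether both series were normalized together is not given in the sources used here. The deposited intensity runs from 5.4 to 25043.5, with array medians of 42.5 to 46.5; log2 was taken, with no further normalization. Array number limits the precision. No 2 arrays shared over 2.04% of their values.

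Probe sets were named from the platform annotation of 2016, updated by Entrez ID through RefSeq GRCm38.p6 (34741 of 34945 that name 1 gene matched; 932 name several and 9160 none). A gene's main probe set names only it and has the highest mean. It was tested if above 44.1 (5.46 on the log2 scale), the median of all values, on at least 3 arrays. limma 3.58.1 (R 4.3.3) fitted 1 mean per group over all arrays with 9 contrasts, two-sided, called at adjusted p under 0.05; it was tested on simulated data. Where a probe set was below background on every array of a group, the fold is a bound against the background level. Marker and pathway levels are summed linear signals on the log2 scale. The 7 genes, the lists and the tests were chosen with earlier results of these data known. Named genes are the 7, the 3 most correlated with each, and up to 4 called genes per list with the largest tooth germ difference. Also named, outside this rule, are Sfrp1, Runx1, Runx3, Cbfb and listed genes that lay at background. Alternatives covered filter, normalization, offset, variance trend, probe set rule, samples fitted, blocks and each array left out. Fits of single probe sets, of each series apart, and within arrays of high or low bacterial control signal were added after the data were seen. Same-numbered arrays deviated together with r from -0.53 to 0.64 in the lens series and -0.08 to 0.03 in the tooth series, so the numbers were not used as pairs, except between E11.5 and E12.5 lens, where all 3 pairs had r of 0.40 to 0.64. The replicate number then also entered as a block over those 6 arrays, a fit added after the data were seen.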

Additional observations from a re-analysis of the deposited data

Results flagged for a closer look

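Tests for an array far from its group were run for the 11 probe sets in the lens-series bodies alone, the only group of 4 arrays. Of these 11 tests 2 marked an array, where chance alone marks about 1 in 20. Groups of 3 arrays were not tested this way. The main Msx2 probe set read 8.14 in replicate 2 and 8.11 in all the others, so any departure there would be marked. Barx1 read 7.22 in replicate 1 with the nearest array at 7.57. By the main probe sets, the tooth germ and E12.5 lens differences from the body differed, by limma's test of that difference, for Lhx8 (6.20), Msx1 (4.11), Lhx6 (3.47) and Barx1 (3.11). In each of these 4 genes tooth germ was higher than its body and lens was lower than its body.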

How the results depend on the processing

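Apart from arrays left out one at a time, 639 values of single genes under the alternatives kept direction and side of the threshold, 23 lost a call, 17 gained one and 5 reversed. All 5 reversed values are those of Pax9: E12.5 minus E10.5 lens was -0.033 by the second probe set, E12.5 lens minus body was -0.74 by the mean of probe sets and -1.52 by the second, and tooth-series minus lens-series body was 0.14 by the mean and 0.98 by the second. The calls of Lhx8, Msx1, Lhx6 and Barx1 for tooth germ against body, and of Lhx8, Msx1 and Barx1 for each lens stage against body, held under every alternative run; the Lhx6 lens calls held except within the high bacterial control arrays at E11.5 and E12.5, where each stage has 1 array. The Pax9 main-set call in tooth germ ended with log2(value + 16), an intensity trend, only the groups compared, the replicate block or the series fitted apart (adjusted p = 0.0504 to 0.0837). The causes of these moves were not tested. The number of members higher in tooth germ was 4 to 6, and with single arrays left out 4 to 5. For E10.5 lens against body, members higher were 1, not 0, with arrays centred, only the groups compared, or the bacterial control set as a block (0 to 1 with arrays left out); for E11.5 lens they were 1 with arrays centred (0 to 1 with arrays left out), and for E12.5 lens 1 with arrays centred, quantile normalization or the mean of probe sets; the added gene is Msx2 each time. For E11.5 against E10.5 lens the count of 1 became 0 with no filter, log2(value + 16), the second probe set, only the groups compared, the low bacterial control arrays or the series fitted apart, and 2 within the high arrays (0 to 1 with arrays left out). For E12.5 against E10.5 lens the count of 2 became 1 by the mean of probe sets, 0 by the second set, 1 within the high and 0 within the low arrays, each with 1 array in an arm. For tooth-series against lens-series body the count higher of 2 became 1 by the mean of probe sets (1 to 2 with arrays left out). Blocks lie within a series, so neither the replicate block nor the bacterial control block can give a value for this comparison. Same-numbered arrays deviated together between E11.5 and E12.5 lens (3 of 3 pairs with r over 0.1) but not throughout (8 of 18 lens pairs and 0 of 3 tooth pairs). With the replicate block 4 members were higher in tooth germ, and 5, 4 and 4 lower in lens at the 3 stages, and none was called between E11.5 and E12.5, also over those 6 arrays alone. Among all genes called, centring made the share higher 50.9%, 53.1% and 52.4% for the 3 lens stages, against 41.4%, 39.7% and 38.4%. Signals near the background of 4.71 limit the Lhx8, Lhx6 and second-set Pax9 values in lens.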
